A study of Populus sp. cv. 'Okanese' with 18 samples.

Results

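The genes described here are a pair of PRR5 genes (PSEUDO-RESPONSE REGULATOR 5, Potri.015G002300 and Potri.012G005900) and TOC1 (TIMING OF CAB EXPRESSION 1, Potri.015G061900) of poplar. They are 3 of the 31033 genes in the table of counts, and they were chosen because the study of these trees names them among its clock genes. No cutoff on their values was used, but earlier results of these data were known when they were chosen. Leaf RNA of the hybrid poplar cultivar ‘Okanese’ was sequenced to find how a lasting shortage of water changes transcripts at different times of day. All trees were raised from cuttings in a greenhouse with a long photoperiod, and the sampled leaf had formed during the water treatment. Soil had targets of 30, 50 or 80 % SWCg, the soil water by weight in percent of that at field capacity. The labels call these severe drought, moderate drought and control. By the study, they are upper limits of ranges, and pots were watered up to them each morning. Soil water was below them when photosynthesis was measured on the last day. The labels also write these levels with g/g as the unit, and percent is used here as in the study.

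Leaves were harvested at 16 h (early evening, EE) and at 10 h (late morning, LM). The 6 groups are EE30, EE50 and EE80 at 16 h and LM30, LM50 and LM80 at 10 h, each with 3 libraries lettered A, B and C. Every tree belonged to the same cultivar, and the labels set the groups apart by harvest time and soil water. No source used here states that each library came from a tree of its own, and p-values therefore measure the spread between these libraries. A library held 17348563 to 48110546 counted reads, with a median of 24020818, and the 3 genes had between 168 and 23226 reads in every library. The 9 EE libraries carry a run tag that differs from that of the 9 LM libraries, so harvest time and sequencing run cannot be told apart. In whole leaves, fewer cells of a type and less RNA per cell cannot be told apart either.

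Pseudo-response regulators are proteins of the plant circadian clock. In Arabidopsis, PRR9, PRR7, PRR5 and TOC1 follow each other through the day, PRR9 in the morning and TOC1 near dusk, and they repress CCA1 and LHY, the transcription factors that open the daily cycle at dawn. Each carries a receiver-like domain at its N-terminus and a CCT domain at its C-terminus, through which it contacts DNA. The Arabidopsis PRR5 protein also binds TOC1 and favours its entry into the nucleus, and ZTL, a blue-light receptor that belongs to an E3 ubiquitin ligase, marks both for breakdown. Transcript levels as measured here do not show protein levels.

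The gene models came from the P. trichocarpa v4.1 annotation with which the reads were counted, and positions are given in that genome. PRR5 Potri.015G002300 lies on the plus strand of chromosome 15 from 112021 to 117679, and its counted exons form 8 merged blocks of 3241 bases in all. PRR5 Potri.012G005900 lies on the plus strand of chromosome 12 from 173794 to 180376, with 8 blocks and 3992 bases. TOC1 Potri.015G061900 also lies on the plus strand of chromosome 15, from 8613604 to 8620743, with 6 blocks and 3374 bases. The spans of these 3 genes overlapped no other annotated gene, and the nearest neighbour stood 1197 bases away, next to Potri.012G005900.

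The PRR5 models had 8 blocks each, with blocks 2 to 5 alike in length and the others not. The TOC1 model had 6 blocks, and only its second had the length found in the PRR5 genes. Blocks 2, 3, 4 and 5 had the same lengths in both PRR5 genes, 162, 131, 156 and 172 bases. The later blocks of Potri.012G005900 were slightly longer than those of Potri.015G002300, with 322 against 319 bases in block 6, 757 against 742 in block 7 and 956 against 827 in block 8. The largest gap was in block 1, with 1336 bases in Potri.012G005900 and 732 bases in Potri.015G002300. In TOC1, block 2 also had 162 bases, blocks 3 and 4 had 134 and 168 bases, and the last block held 1969 of the 3374 bases. Reads that fit more than 1 place were not counted under the settings recorded with the counts, and reads from stretches that the PRR5 pair shares would be missing from both.

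**Figure D1:**
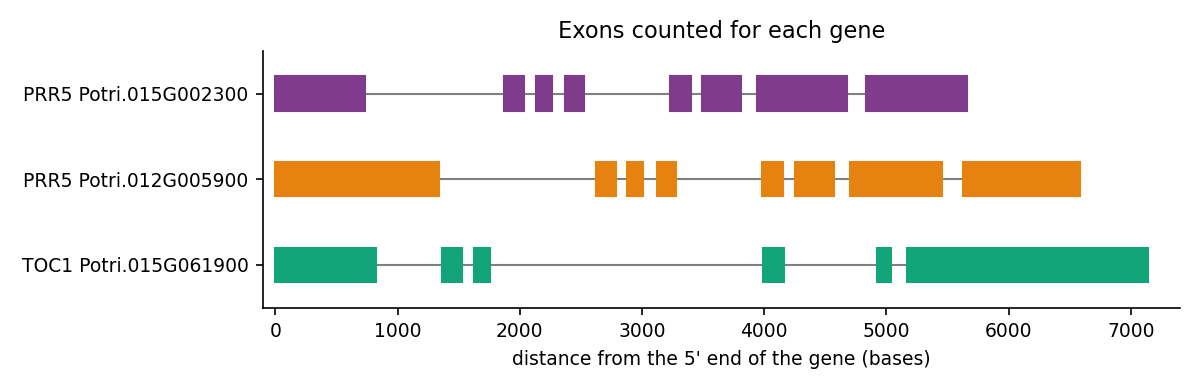
Exon blocks counted for TOC1 and both PRR5 genes, drawn to scale against the distance in bases from the 5′ end of each gene. Boxes are merged exons and lines are introns. Both PRR5 genes have 8 blocks in the same arrangement, and TOC1 has 6.

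The question asked of harvest time was which transcripts differ between early evening and late morning leaves. All 3 genes were higher in the early evening at each level of soil water, and the extent was not alike. Potri.012G005900 was 17.5 to 28.1 times as high in EE as in LM leaves, Potri.015G002300 3.93 to 5.28 times, and TOC1 1.88 to 2.11 times. Levels are in CPM, reads of a gene scaled to a common library total after TMM scaling of the libraries, and group values are the mean and SD of 3 libraries.

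Potri.012G005900 was at 553, 633 and 602 CPM in EE30 A, B and C, against 30.4, 17.4 and 15.6 CPM in LM30 A, B and C. With 50 % SWCg it was at 559, 700.4 and 606 CPM in the EE50 libraries, against 44.3, 27.8 and 34.6 CPM in the LM50 libraries. With 80 % SWCg it was at 795, 765 and 765 CPM in the EE80 libraries, against 38.9, 28.3 and 26.7 CPM in the LM80 libraries. The lowest EE library was thus far above the highest LM library, and among the EE groups the EE80 libraries lay closest together. The log2 fold change between EE and LM was 4.81 (95 % interval of the fold 19.8 to 39.9) at 30 % SWCg, 4.13 (12.5 to 24.6) at 50 % and 4.62 (17.5 to 34.8) at 80 %. Its edgeR adjusted p, from the quasi-likelihood test over 23700 genes with Benjamini–Hochberg adjustment, was 8.56e-11, 2.63e-10 and 1.07e-10 at 30, 50 and 80 % SWCg. Among the log2 fold changes of all tested genes, ordered from the highest, it took places 46, 81 and 62.

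Potri.015G002300 was at 286, 343 and 313 CPM in EE30 A, B and C, against 84.0, 43.2 and 50.9 CPM in LM30 A, B and C. With 50 % SWCg the EE50 libraries held 247, 336 and 324 CPM, against 105, 55.9 and 70.3 CPM in the LM50 libraries. With 80 % SWCg the EE80 libraries held 309, 351 and 324 CPM, against 79.9, 62.7 and 63.7 CPM in the LM80 libraries. Again no EE library fell into the range of the LM libraries, but the late morning level of this gene was well above that of its partner. The log2 fold change was 2.40 (fold interval 3.74 to 7.48), 1.97 (2.80 to 5.52) and 2.25 (3.38 to 6.71) at 30, 50 and 80 % SWCg. The edgeR adjusted p was 2.58e-07, 1.84e-06 and 4.62e-07, and the places among all genes were 596, 966 and 678.

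TOC1 was at 134, 129 and 135 CPM in EE30 A, B and C, against 71.0, 52.6 and 65.4 CPM in LM30 A, B and C. With 50 % SWCg it was at 138, 121 and 127 CPM in the EE50 libraries, against 64.3, 61.4 and 67.0 CPM in the LM50 libraries. With 80 % SWCg it was at 139, 124 and 134 CPM in the EE80 libraries, against 66.1, 77.1 and 67.6 CPM in the LM80 libraries. The groups of EE and LM did not overlap for TOC1 either, although its change was the smallest of the 3 genes. The log2 fold change was 1.08 (fold interval 1.83 to 2.43), 1.00 (1.74 to 2.31) and 0.91 (1.63 to 2.17) at 30, 50 and 80 % SWCg. The edgeR adjusted p was 9.46e-08, 1.83e-07 and 5.79e-07, and the places were 2383, 2784 and 3013.

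Calls between harvest times were common in these leaves. Of all tested genes, 28.3 % were called higher in EE30 than in LM30, 28.8 % in EE50 than in LM50 and 27.3 % in EE80 than in LM80, and each of the 3 genes was called in each of these contrasts. Every EE library stood above every LM library for 30.9 % of the genes at 30 % SWCg, 34 % at 50 % and 30.6 % at 80 %. A call or a lack of overlap alone therefore did not set the 3 genes apart, and the size of the change in Potri.012G005900 did place it near the top of the list. Some other clock genes, given further below, rose by more. No alternative test, filter, scaling or left-out library ended any of these 9 calls.

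**Figure D2:**
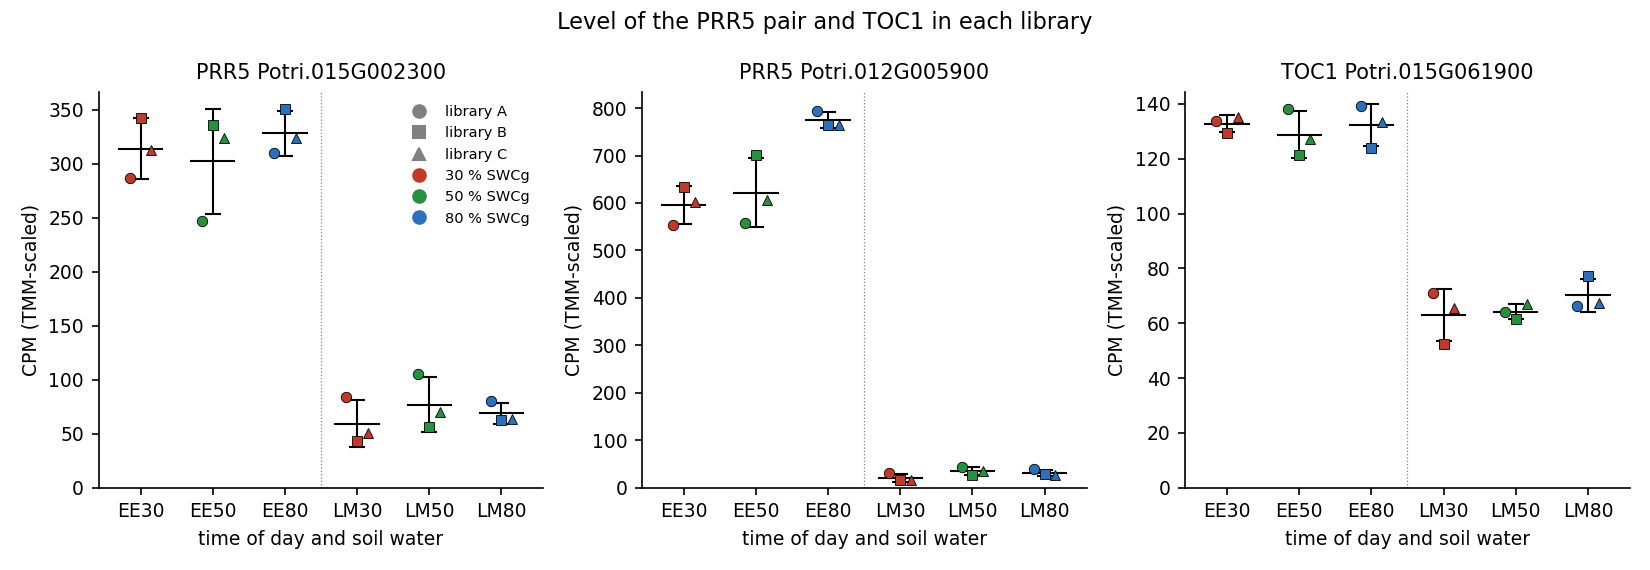
Level in CPM (TMM-scaled, axis from 0) of each gene in every library, for the EE groups on the left of each panel and the LM groups on the right, with the mean and SD of the 3 libraries. Potri.012G005900 averaged 775 CPM in EE80 and 31.3 CPM in LM80, while TOC1 averaged 132 CPM in EE80 and 70.3 CPM in LM80.

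Ordered by its mean level, each gene had the 3 EE groups above the 3 LM groups. Potri.012G005900 ran from EE80 (775 ± 17.3 CPM) over EE50 (622 ± 72.1) and EE30 (596 ± 40.1) to LM50 (35.6 ± 8.31), LM80 (31.3 ± 6.63) and LM30 (21.1 ± 8.08). Among neighbours of the same harvest time, only EE80 and EE50 did not overlap for this gene. Potri.015G002300 ran from EE80 (328 ± 20.9 CPM) over EE30 (314 ± 28.1) and EE50 (302 ± 48.4) to LM50 (77.1 ± 25.3), LM80 (68.8 ± 9.65) and LM30 (59.3 ± 21.7). TOC1 ran from EE30 (133 ± 3.05 CPM) over EE80 (132 ± 7.73) and EE50 (129 ± 8.68) to LM80 (70.3 ± 5.98), LM50 (64.2 ± 2.78) and LM30 (63.0 ± 9.46). For Potri.015G002300 and TOC1, all neighbours of the same harvest time overlapped.

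Levels of different genes were compared as CPM per kilobase of counted exon. In EE80 leaves, Potri.012G005900 averaged 194 CPM per kb, Potri.015G002300 101 and TOC1 39.2. In LM80 leaves the order of the PRR5 genes was turned round, with 7.84 CPM per kb for Potri.012G005900, 21.2 for Potri.015G002300 and 20.8 for TOC1. On this scale Potri.012G005900 had 98.8 % of the tested genes below it in EE80 and 49.8 % in LM80, and TOC1 had 87.1 % and 74.3 %. Its early evening level thus put Potri.012G005900 near the top of the tested genes, and its late morning level put it near the middle. The tested set leaves out the genes with a mean log2 CPM of 9 or more, the most abundant by that measure.

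The balance within the PRR5 pair was read inside each library, where library size has no part. Potri.012G005900 made up 61.1, 60.0 and 61.0 % of the pair, per exon base, in EE30 A, B and C, against 22.7, 24.7 and 20.0 % in LM30. It made up 64.8, 62.9 and 60.3 % in the EE50 libraries, against 25.5, 28.8 and 28.5 % in the LM50 libraries. In the EE80 libraries its share was 67.6, 63.9 and 65.7 %, against 28.3, 26.8 and 25.4 % in the LM80 libraries. By reads per exon base, the gene on chromosome 12 was thus the major partner in all 9 EE libraries and the minor partner in all 9 LM libraries. The share itself depends on the exon lengths used and on how well reads of each gene map, which was not tested. Differences of the log2 ratio between groups do not depend on the exon lengths. The log2 ratio of Potri.012G005900 over Potri.015G002300 was 2.32 higher in EE than in LM leaves, a 4.98-fold difference (exact permutation test within soil water levels, two-sided, p = 0.00025, the smallest that 8000 arrangements allow). Adjusted over the 9 ratio tests made, this exact p was 0.00075, and the log2 difference was 2.42, 2.14 and 2.39 at 30, 50 and 80 % SWCg.

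Both PRR5 genes also rose against TOC1. The log2 ratio to TOC1 was 3.56 higher in EE than in LM leaves for Potri.012G005900 and 1.24 higher for Potri.015G002300, which are 11.8-fold and 2.36-fold differences. In both ratios the groups were apart at all 3 soil water levels, and the exact permutation p was again 0.00025 (adjusted exact p = 0.00075).

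**Figure D3:**
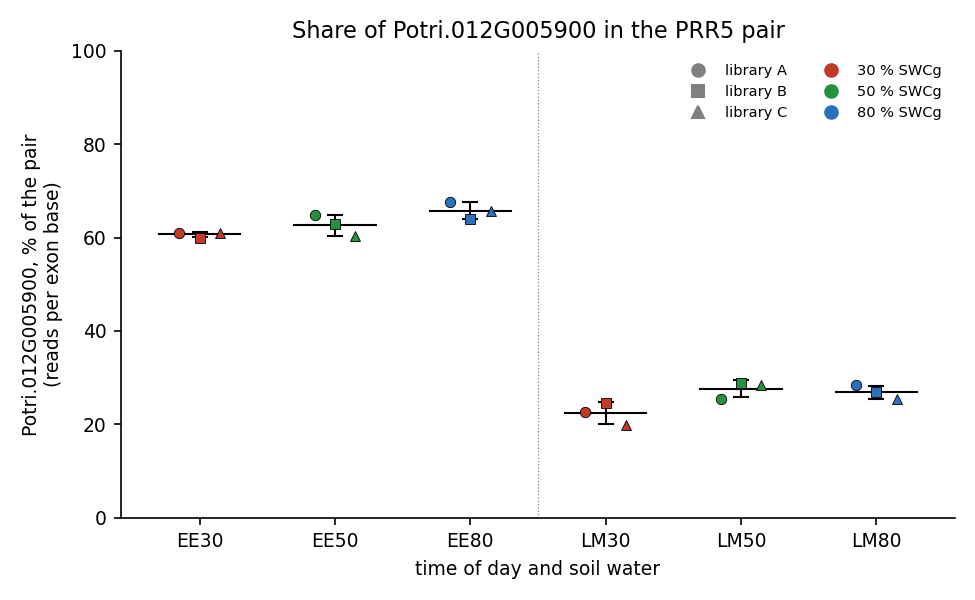
Share of Potri.012G005900 in the reads per exon base of the PRR5 pair (percent, axis from 0 to 100) in each library, with EE groups left of LM groups and the mean and SD of 3 libraries. The share averaged 60.7 to 65.7 % in the EE groups and 22.5 to 27.6 % in the LM groups, and the EE30 and LM30 libraries sit below those of EE80 and LM80.

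The other pseudo-response regulators that the study names are the PRR9 genes Potri.014G106000 and Potri.002G179800 and the PRR7 genes Potri.010G215200 and Potri.008G046200. PRR9 and PRR7 precede PRR5 in the daily order of Arabidopsis. PRR9 Potri.014G106000 was lower in EE leaves (log2 fold change −1.53, −1.49 and −1.32 at 30, 50 and 80 % SWCg), and PRR9 Potri.002G179800 was called lower only at 50 % (−0.24, edgeR adjusted p = 0.0262), with −0.03 at 30 % and −0.04 at 80 %. PRR7 Potri.010G215200 was higher in EE leaves (2.40, 2.43 and 2.45), beside 2.40, 1.97 and 2.25 in Potri.015G002300, and PRR7 Potri.008G046200 was higher by less (0.50, 0.37 and 0.44). The highest of these values, 2.45, lay below the lowest of Potri.012G005900, 4.13.

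Summed over the 7 pseudo-response regulators, the level was 485, 483 and 542 CPM per kb in EE30, EE50 and EE80, against 206, 213 and 209 CPM per kb in LM30, LM50 and LM80. Potri.012G005900 took 35.8 % ± 0.832 of this sum in EE80, the largest share of the 7 genes there, and 3.73 % ± 0.555 in LM80, the smallest there. Potri.015G002300 took 18.7 % ± 1.09 in EE80 and 10.12 % ± 0.795 in LM80. TOC1 took 7.23 % ± 0.467 in EE80 and 10.0 % ± 1.27 in LM80, so that its share was lower in the evening although its own level was higher. In LM80 the largest share, 26.1 % ± 0.921, was that of PRR9 Potri.014G106000.

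**Figure D4:**
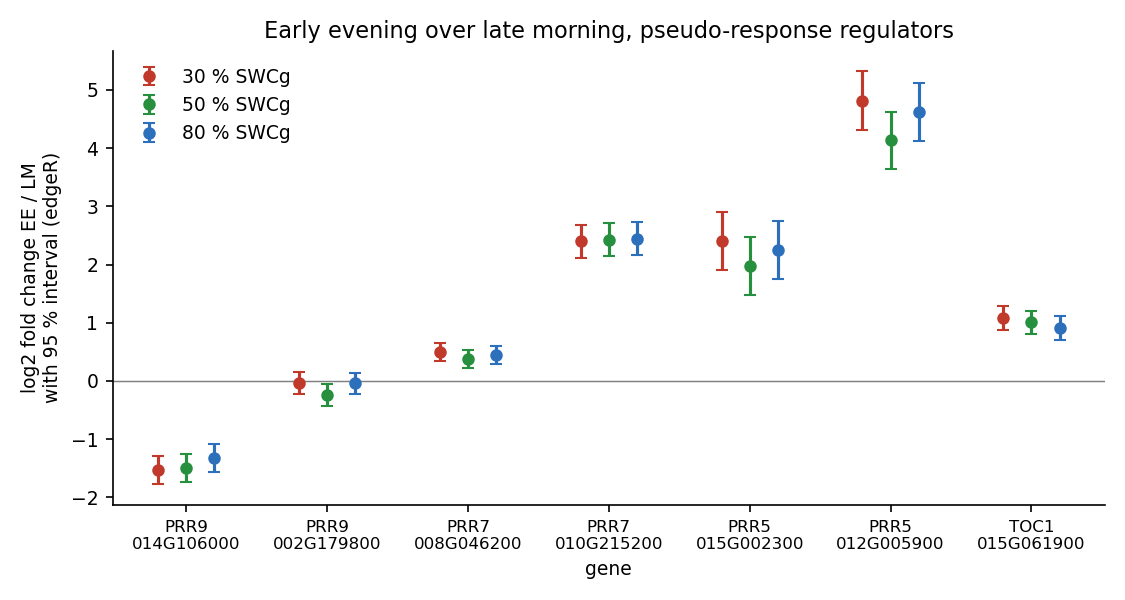
Log2 fold change between EE and LM leaves (edgeR, with 95 % interval) of the 7 pseudo-response regulators at 30, 50 and 80 % SWCg. Potri.012G005900 lies at 4.13 to 4.81, Potri.015G002300 at 1.97 to 2.40 and TOC1 at 0.91 to 1.08, while PRR9 Potri.014G106000 lies at −1.53 to −1.32.

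The second question was whether drought changed these transcripts. None of the 3 genes passed the quasi-likelihood test of edgeR in any contrast of 30 or 50 % with 80 % SWCg. Other tests did call Potri.012G005900, as given below, among them edgeR with the robust dispersion estimate that the study also used. The lowest values were those of Potri.012G005900 at 30 % SWCg, and those of TOC1 lay between −0.16 and 0.01. The contrasts of 1 harvest time share their 80 % SWCg libraries.

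In the late morning, Potri.012G005900 had a log2 fold change of −0.57 between LM30 and LM80 (95 % interval −1.02 to −0.11, edgeR adjusted p = 0.226), and its p was below 0.05 only before adjustment. Potri.015G002300 had −0.21 (−0.70 to 0.27, edgeR adjusted p = 0.710) and TOC1 −0.16 (−0.36 to 0.05, edgeR adjusted p = 0.466). The LM30 and LM80 ranges overlapped for all 3 genes, since LM30 A was the highest LM30 library of each. Between LM50 and LM80 the log2 fold change was 0.17 (−0.27 to 0.62) for Potri.012G005900, 0.16 (−0.32 to 0.64) for Potri.015G002300 and −0.13 (−0.34 to 0.07) for TOC1, each with an edgeR adjusted p of 1. Without LM50 A, the values of the PRR5 genes were −0.01 and −0.13, below 0.

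In the early evening, Potri.012G005900 had a log2 fold change of −0.38 between EE30 and EE80 (−0.80 to 0.04, edgeR adjusted p = 0.340) and −0.32 between EE50 and EE80 (−0.74 to 0.10, edgeR adjusted p = 0.839). All 3 EE80 libraries of this gene lay above all EE30 and all EE50 libraries. Over all tested genes, 10.3 % had every EE30 library below every EE80 library and 6.37 % every EE50 library below every EE80 library. In the late morning the share was 8.94 % for LM30 below LM80 and 3.22 % for LM50 below LM80, with none of the 3 genes among them. Potri.015G002300 had −0.06 (−0.53 to 0.41) at 30 % and −0.12 (−0.59 to 0.35) at 50 %, with edgeR adjusted p of 0.921 and 0.964. TOC1 had 0.01 (−0.20 to 0.21) and −0.04 (−0.24 to 0.16), with edgeR adjusted p of 0.988 and 0.980. On the linear scale the interval of TOC1 between EE30 and EE80 was 0.873-fold to 1.15-fold, and those of the PRR5 genes were wider.

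Averaged over both harvest times, the log2 fold change between 30 and 80 % SWCg was −0.47 for Potri.012G005900 (−0.78 to −0.16, edgeR adjusted p = 0.0685), again below 0.05 only before adjustment. It was −0.14 for Potri.015G002300 (−0.48 to 0.20, edgeR adjusted p = 0.659) and −0.08 for TOC1 (−0.22 to 0.07, edgeR adjusted p = 0.547). The call of Potri.012G005900 thus depended on the test. DESeq2 called it in this average (−0.48, DESeq2 adjusted p = 0.0224), and so did edgeR with its robust dispersion and a likelihood ratio test (−0.55, adjusted p = 0.000466), which also called it between LM30 and LM80 (−0.73, adjusted p = 0.0118). Without LM30 A the quasi-likelihood test of edgeR called it as well (−0.65, adjusted p = 0.0102), and so did that test with the replicate block (−0.47, adjusted p = 0.0427). Over all alternatives, the adjusted p of this average ranged from 0.000466 to 0.250, with the highest value found with LM80 A, LM30 B and EE30 C removed together (−0.32). A call in this average was shared with many other genes. Of the 23700 tested genes, the likelihood ratio test called 2334 in it, against 1318 in the main test. The alternatives other than single left-out libraries, DESeq2 among them, called 1200 to 2334 genes. Fits with 1 library left out called 490 to 1592.

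How many genes of the whole table were called in these contrasts depended on the test. With the quasi-likelihood test of edgeR the share was 0.0675 % of the tested genes (16 genes) for LM30 against LM80, 0 % for LM50 against LM80, 1.94 % for EE30 against EE80, 0.0127 % (3 genes) for EE50 against EE80 and 5.56 % for the average of both times. For LM50 against LM80, 468 genes had an unadjusted edgeR p below 0.05, and DESeq2 and the likelihood ratio test called 1 gene each. DESeq2 called 538 genes for LM30 against LM80, 1033 for EE30 against EE80 and 38 for EE50 against EE80, and the likelihood ratio test called 694, 1576 and 125. The edgeR counts also rested on single libraries. For LM30 against LM80 the count was 171 without LM80 A and 0 without LM30 B or LM80 B, and for EE30 against EE80 it was 737 without LM30 B and 62 without EE80 A. For the average it was 490 without EE80 A. With a replicate block for the letter, which is shared by EE30 and EE80 libraries that deviated together, 739 genes were called for EE30 against EE80 in place of 460, and none of the 3 genes was among them.

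No difference of the drought contrasts between EE and LM passed the test for the 3 genes. For 30 against 80 % SWCg, the EE log2 fold change minus the LM one was 0.19 (−0.43 to 0.81) for Potri.012G005900, 0.15 (−0.52 to 0.82) for Potri.015G002300 and 0.16 (−0.12 to 0.45) for TOC1, with edgeR adjusted p of 0.894, 0.930 and 0.762. For 50 against 80 % SWCg it was −0.49 (−1.10 to 0.12), −0.28 (−0.95 to 0.39) and 0.09 (−0.19 to 0.38), with edgeR adjusted p of 0.984, 0.985 and 0.996. Over all tested genes edgeR called 0 % in both, while 2040 and 1050 genes had an unadjusted p below 0.05. DESeq2 called 33 and 2 genes in these contrasts, and the likelihood ratio test 44 and 11.

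**Figure D5:**
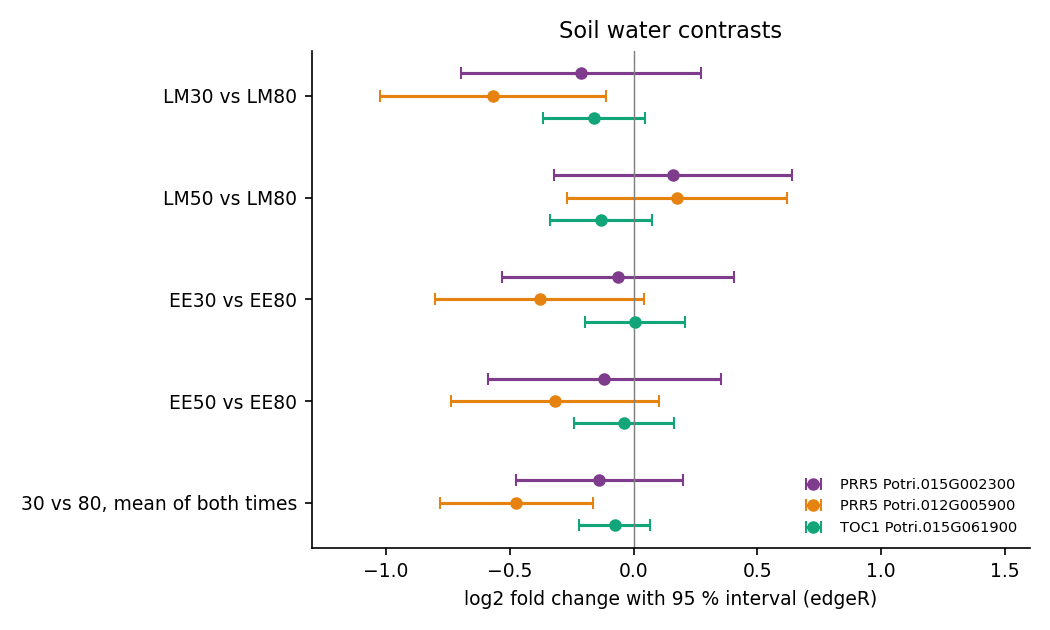
Log2 fold change of each gene in the soil water contrasts (edgeR, with 95 % interval). The interval of Potri.012G005900 lies below 0 for LM30 against LM80 (−1.02 to −0.11) and for the average of both times (−0.78 to −0.16), and the other intervals include 0.

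The balance of the PRR5 pair differed between 30 and 80 % SWCg in these libraries, by a test chosen with earlier results of these data known. Potri.012G005900 averaged 60.7 % ± 0.597 of the pair in EE30 against 65.7 % ± 1.84 in EE80, and 22.5 % ± 2.37 in LM30 against 26.9 % ± 1.47 in LM80 (SD, n = 3 libraries each). No library at 30 % SWCg overlapped those at 80 % of the same harvest time, though the highest LM30 share was 24.7 % and the lowest LM80 share 25.4 %. How often the ratios of other gene pairs part in this way was not computed. Among single genes, 10.3 % had every EE30 library below every EE80 library, and 8.94 % every LM30 library below every LM80 library. In the average of both times, 22.2 % of the tested genes had an unadjusted edgeR p below 0.05. The log2 ratio was 0.33 lower at 30 than at 80 % SWCg (difference −0.33, 0.795-fold), with −0.32 among EE and −0.35 among LM leaves. The exact permutation test within harvest times gave p = 0.005, the smallest of 400 arrangements, and an exact p of 0.0112 after adjustment over the 9 ratio tests. Leaving out any library kept the difference between −0.38 and −0.28 with an exact p of at most 0.01. At 50 % SWCg the shares were 62.7 % ± 2.24 in EE50 and 27.6 % ± 1.81 in LM50, and the log2 ratio differed from that at 80 % by −0.07 (exact p = 0.400, adjusted exact p = 0.600).

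Set against TOC1, Potri.012G005900 was 0.42 lower on the log2 scale at 30 than at 80 % SWCg (difference −0.42, exact permutation p = 0.015, adjusted exact p = 0.027). That result was lost without LM30 C (−0.31, exact p = 0.06) and without LM80 A (−0.31, exact p = 0.065). The ratio of Potri.015G002300 to TOC1 differed by −0.09 (exact p = 0.50). At 50 % SWCg neither ratio passed, with differences of 0.01 for Potri.012G005900 (exact p = 0.935) and 0.08 for Potri.015G002300 (exact p = 0.695).

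The PRR5 genes varied together from library to library, and TOC1 did not share that spread. Deviations from the group means, on the log2 scale, correlated at 0.908 between the PRR5 genes, against 0.258 and 0.226 between either of them and TOC1, over the 18 libraries, in each of which the genes share 1 depth. Library A was the highest of its group for both PRR5 genes in LM30, LM50 and LM80. For Potri.015G002300, B was the highest and A the lowest library in EE30, EE50 and EE80. The biological coefficient of variation estimated by edgeR was 19.5 % for Potri.015G002300 and 17.6 % for Potri.012G005900, above the median of 10.9 % over all tested genes, and 8.84 % for TOC1.

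The genes whose log2 CPM followed the members most closely over the 18 libraries were named without regard to function. For Potri.015G002300 they were Potri.001G297300 (r = 0.992), the partner Potri.012G005900 (0.990) and Potri.007G030500 (0.990). For Potri.012G005900 they were Potri.011G105400 (0.997), Potri.007G030500 (0.997) and Potri.017G079100 (0.996), with Potri.015G002300 in place 53. For TOC1 they were Potri.011G010300 (0.993), Potri.003G138500 (0.992) and Potri.004G036400 (0.992), with Potri.012G005900 in place 299. The split between EE and LM libraries, where harvest time and sequencing run cannot be told apart, is part of this likeness. An r above 0.9 with Potri.015G002300, Potri.012G005900 and TOC1 was reached by 2713, 3009 and 2863 genes.

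Likeness of the deviations from the mean of each harvest time leaves that split out, and 0, 2 and 1 genes then had an r above 0.9. By this measure the PRR5 genes remained near each other (r = 0.850, place 5 seen from Potri.015G002300 and place 13 seen from Potri.012G005900), and TOC1 stood far from both (0.295 in either case, places 4107 and 5440). The closest genes to Potri.012G005900 were Potri.015G045700 (0.931), Potri.001G249000 (0.910) and Potri.015G138600 (0.892). Potri.015G045700 averaged 7.09, 6.79 and 8.75 CPM in EE30, EE50 and EE80, against 2.69, 5.09 and 4.86 CPM in LM30, LM50 and LM80. Those closest to Potri.015G002300 were Potri.001G249000 (0.874), Potri.001G297300 (0.863) and Potri.018G088050 (0.859), the last of which averaged under 0.37 CPM in every group. For TOC1 they were Potri.015G047500 (0.903), Potri.007G098700 (0.897) and Potri.013G076100 (0.878).

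The wider clock list held 11 further genes that the study names, the PRR9 and PRR7 pairs with CCA1, GI, ZTL and LUX genes. Their names are those of the study, and whether each matches the Arabidopsis gene of that name was not examined. GI (GIGANTEA) stabilises ZTL in Arabidopsis, and LUX is the DNA-binding part of the evening complex. Between EE and LM, 7 of the 11 were called higher at each soil water level, and 3, 4 and 3 lower at 30, 50 and 80 % SWCg. Of all tested genes, 25.1, 24.1 and 24.5 % were called lower in these contrasts, beside the shares called higher given above. Their median log2 fold change was 2.202, 1.85 and 1.94, against 0.02, 0.05 and 0.03 over all tested genes. Potri.012G005900 lay above that median at every level, Potri.015G002300 lay close to it, and TOC1 lay below it. ZTL Potri.008G135200 (8.74, 9.16 and 9.02), ZTL Potri.010G105700 (6.15, 5.91 and 5.85) and LUX Potri.001G243600 (6.64, 7.22 and 6.99) rose by more than Potri.012G005900. LUX Potri.009G035000 (4.52, 4.30 and 4.48) rose by a like amount. In the LM groups, ZTL Potri.008G135200 and LUX Potri.001G243600 averaged at most 0.367 CPM. CCA1, the target of the PRR proteins in Arabidopsis, was lower in EE leaves, with −2.28, −2.22 and −2.06 for Potri.017G144800 and −4.31, −4.29 and −4.04 for Potri.004G074300 at 30, 50 and 80 % SWCg.

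In the drought contrasts, 0 of these 11 genes were called by edgeR, DESeq2 or the likelihood ratio test. An unadjusted edgeR p below 0.05 was reached by 2 of them for LM30 against LM80, 1 for EE50 against EE80 and 2 for the average of both times, against 15.1, 6.38 and 22.2 % of all tested genes. The lowest adjusted p was 0.128, for GI Potri.005G196700 in the average (edgeR, log2 fold change −0.19).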

How the data were processed

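Leaf RNA of 18 libraries was sequenced with single-end reads from stranded libraries. Per the labels and methods, trimming was done with Trimmomatic (version not given in the sources used here), the P. trichocarpa genome was the target of HISAT2 2.2.1 (with SAMtools 1.3.1), and reads were counted with featureCounts 2.0.1, whose recorded command sets no option for strand or multi-mapping reads. The deposited table holds the authors’ read counts for each gene, not normalized. Groups came from the sample labels. Genes whose mean log2 CPM lay between −2 and 9 were tested in R 4.3.3 with the quasi-likelihood test of edgeR 4.0.16, with TMM scaling and 1 model of the 6 groups. A gene was called at an adjusted p below 0.05 (Benjamini–Hochberg). Log2 CPM used a prior count of 2, and ratios added 0.5 to each count. Exact permutation tests, levels and figures were made with Python 3.11.15, pandas 2.3.3, scipy 1.17.1 and matplotlib 3.10.9.

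The alternatives were DESeq2 1.42.0, a likelihood ratio test in edgeR with robust dispersion, size factors of DESeq2, no filter, filterByExpr, a replicate block, each harvest time fitted alone, each library left out, and 0 or 2 added in ratios. The joint removal of LM30 B, LM80 A and EE30 C was added after seeing the data. Genes most like a member were the 3 with the highest correlation by each measure. The members, lists and tests were chosen with earlier results of these data known. Deviations of libraries with the same letter correlated at 0.206, 0.197 and 0.378 (A, B, C) between EE30 and EE80, and in none of the 6 other pairs of groups compared were all 3 values above 0.1. No reference sequence or gene description was used, so leaf markers were not examined. ELF3, ELF4 and a further GI gene were not analysed here.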

Additional observations from a re-analysis of the deposited data

How the results depend on the processing

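The harvest-time calls of the PRR5 genes and TOC1 kept their direction and their side of the threshold under all alternatives run. So did the harvest-time differences of the ratios between them and the 30 to 80 % SWCg difference of the ratio within the PRR5 pair. For ratios, the threshold was applied to the exact p before adjustment, and no adjusted p was computed for the alternatives. The drought contrasts did not, and the cause was not tested for any of the shifts given here. DESeq2 called 538 genes for LM30 against LM80, 1 for LM50 against LM80, 1033 for EE30 against EE80 and 38 for EE50 against EE80, and 33 and 2 genes for the differences between harvest times at 30 and 50 % SWCg. The likelihood ratio test with robust dispersion called 694, 1, 1576 and 125 genes, 44 and 11 for the differences, and 2334 for the average of both times. Potri.012G005900 was called in that average by DESeq2 (−0.48) and the likelihood ratio test (−0.55), and by the likelihood ratio test also for LM30 against LM80 (−0.73). With each harvest time fitted alone, 7 genes were called for LM30 against LM80 and 0 for EE50 against EE80. With LM80 A, LM30 B and EE30 C removed together the counts were 28 for LM30 against LM80, 1803 for EE30 against EE80, 10 for EE50 against EE80 and 6 for the difference at 30 % SWCg. In that fit the uncalled values of Potri.015G002300 were 0.0949 for LM30 against LM80, 0.0136 for the average and −0.16 for the difference at 30 % SWCg, where Potri.012G005900 had −0.14. TOC1 in EE30 against EE80, near 0 throughout, turned to −0.003268 with DESeq2, −0.003147 with DESeq2 size factors, −0.004501 with the early evening fitted alone and −0.0149 without the 3 libraries.

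With the replicate block, 256 genes were called for LM30 against LM80 and 739 for EE30 against EE80, and Potri.012G005900 was called in the average of both times (−0.47, edgeR adjusted p = 0.0427). For the 30 to 80 % SWCg difference in the PRR5 pair, the replicate block gave an exact p of 0.0312 before adjustment, the smallest that the signs allow. It ended no call of a member. The letters are not known to mark a shared tree or day.

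With each library left out in turn, the counts ranged over 0 to 171 for LM30 against LM80, 62 to 737 for EE30 against EE80, 0 to 6 for EE50 against EE80, 490 to 1592 for the average and 0 to 1 for the difference at 30 % SWCg. Potri.012G005900 ranged over −0.65 to −0.38 in the average, −0.0134 to 0.36 for LM50 against LM80 and −0.000412 to 0.55 for the difference at 30 % SWCg. Potri.015G002300 ranged over −0.13 to 0.35 for LM50 against LM80, −0.20 to 0.00825 for EE50 against EE80, and −0.0360 to 0.49 and −0.47 to 0.00920 for the differences at 30 and 50 % SWCg. TOC1 ranged over −0.0385 to 0.0438 for EE30 and −0.0915 to 0.00411 for EE50 against EE80. The ratio of Potri.012G005900 to TOC1 ranged over −0.52 to −0.31 at 30 % and −0.0755 to 0.11 at 50 % SWCg, and that of Potri.015G002300 over −0.0442 to 0.18 at 50 %. Of all values recomputed, 1084 kept direction and side of the threshold or, for counts of called genes, stayed within 1.5 times of the main count. Of the rest, 2 lost a call, 5 gained one, 26 changed sign, and 52 counts moved by more than 1.5 times or to or from 0.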
